A study of Xenopus laevis with 6 samples.

Results

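The genes described here encode the TGF-beta, activin and BMP signalling system in the testis of Xenopus laevis, the African clawed frog, with its ligands, receptors, SMAD transducers and secreted antagonists. They were 84 of the 31598 rows of the mRNA table, chosen by symbol or description. The rule itself used no values, but it was set with earlier results of these data known. Of these, 68 rows carried a symbol of the family (bmp, gdf, inhibin, activin receptor, smad, nodal, lefty, noggin, gremlin, follistatin and the like), and 16 rows were found only through their description, for example as an activin receptor or a bone morphogenetic protein. The 84 rows held 78 different symbols, since a few genes had a second row on an unplaced sequence. Xenopus laevis is allotetraploid, and the suffixes L and S name the copies of a gene on its paired chromosome sets. In some rows named here the suffix goes against the chromosome of the deposited locus, as in inha.S, chrd.L and the bmp1 and id4 copies.

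The atrazine group had lived for 180 days with 100 µg/L of this triazine herbicide, and the frogs of the control group were unexposed. Both were sampled at postnatal day 193, with 3 testis libraries in each group, prepared from rRNA-depleted total RNA. The labels do not say how many animals stand behind a library, so p-values measure only the spread between these libraries, which may be technical. The mRNA table rested on an estimated 7360633 to 15393407 reads per atrazine library, with replicate 3 the shallowest, and on 13784688 to 17018688 reads per control library.

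In this system a dimeric ligand brings together type II and type I receptor kinases on the cell surface. The type I receptor then phosphorylates receptor SMADs, which join the common SMAD4 and enter the nucleus to regulate genes. TGF-beta, activin and nodal ligands signal mainly through SMAD2 and SMAD3, and BMPs through SMAD1 and its relatives SMAD5 and SMAD9. Inhibitory SMADs, decoy receptors and ligand traps such as follistatin, noggin and gremlin dampen the signal. In vertebrate testes, inhibin from Sertoli cells restrains the pituitary hormone FSH, activins act on Sertoli and germ cells, and in the mouse BMPs are needed for making and keeping germ cells.

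The levels of these genes, in FPKM, which is scaled to transcript length, spanned from undetected to abundant. A mean of at least 10 FPKM over the 6 libraries was seen in 15 rows, a mean of 1 to 10 FPKM in 38 rows and a mean under 1 FPKM in 31 rows. The most abundant was inha.S, the inhibin alpha subunit, at a mean of 45.7 FPKM, above 90.1% of all tested rows. It was followed by the TGF-beta type I receptor tgfbr1.S at 39.2 FPKM and by the receptor SMADs smad2.S at 35.8 FPKM and smad1.S at 32.7 FPKM. The type I receptors, the type II receptors and the SMADs all passed the filter of at least 0.5 FPKM in at least 3 libraries, with 9, 5 and 12 rows. Of the 43 ligand rows only 23 passed it, and of the 10 antagonists and binding proteins 6 did. The 26 rows that were not tested reached at most 0.921 FPKM, in gdf7.S, and at most 18 estimated reads, and nodal3.1.L_2 was at 0 in every library. They held 10 of the 15 nodal and Vg1 ligand rows, both copies of lefty, a nodal antagonist, the BMP antagonist chrd.L (chordin), fstl1.L and both copies of gdnf. Rows nodal1.L, nodal2.L, nodal3.1.L and nodal3.2.L share 1 deposited locus with 6 other rows, so reads could be split among them. GDNF, the ligand by which Sertoli cells support spermatogonial stem cells in the mouse, reached 0.155 FPKM in atrazine testes and 0.430 FPKM in control testes in its higher row, gdnf.S.

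**Figure D1:**
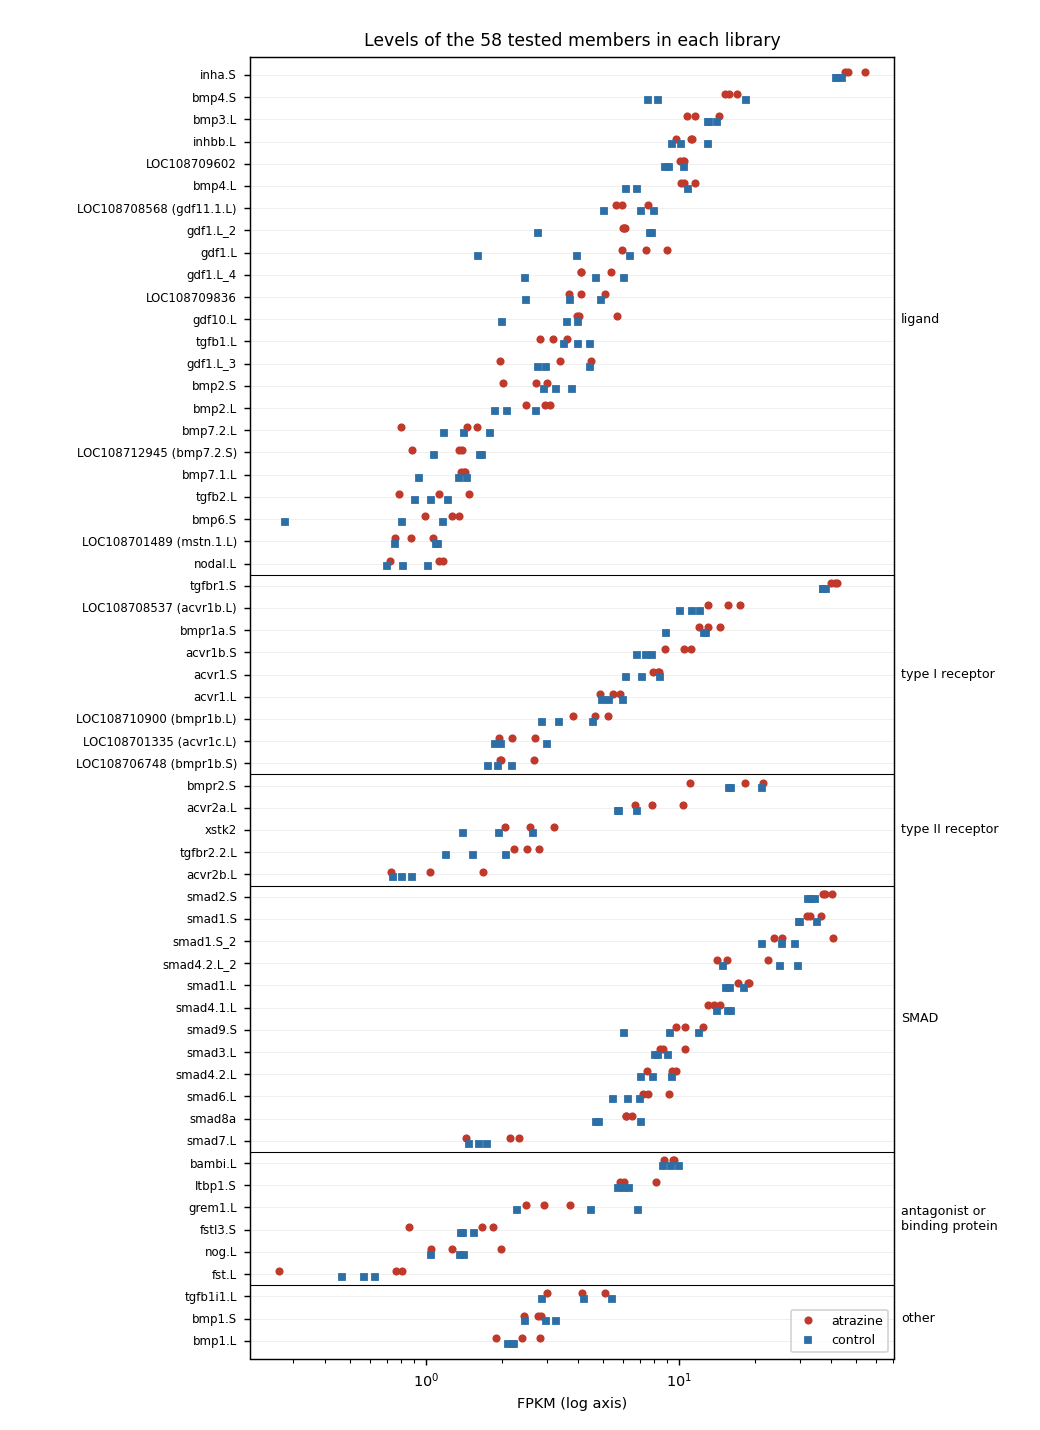
FPKM (log axis) of the 58 tested rows in each of the 6 libraries, grouped by role and ordered by mean within a role. Red circles are atrazine libraries and blue squares are control libraries. The receptors and SMADs hold most of the rows near or above 10 FPKM, and the groups lie apart without overlap in 7 rows.

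The main comparison asked which of these genes differed between atrazine and control testes. No member passed the test, and the differences that came nearest to it were higher values in atrazine in both copies of the activin type I receptor gene acvr1b, in a TGF-beta type II receptor, and in 1 short row of the ligand gene gdf1. Limma with Benjamini-Hochberg adjustment over all rows called 0 of the 58 tested members, as it called 0 of 23824 rows in the whole table (0%), and the smallest adjusted p among members was 0.693. At an unadjusted p under 0.05 there were 4 members (6.9%), all with a higher value in atrazine, against 5.92% of all rows, 3.32% higher and 2.59% lower. This number changed with the library left out, as did that of all rows, which was 1410 of 23824 with all libraries. Leaving out atrazine replicate 2 gave 1 such member, beside 657 of 23495 rows. Without atrazine replicate 3 there were 0, beside 1109 of 23457 rows. Leaving out control replicate 3 gave 2, beside 779 of 23492 rows. Without control replicate 1 there were 12, beside 4498 of 23573 rows (19.1%).

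The signs of the members leaned to the higher side. A log2 fold change above 0 was seen in 40 of the 58 tested members (69%), and in 57.3% of all tested rows. The median of the members was 0.11 and that of all rows 0.040. These differences are atrazine minus control of log2(FPKM + 1), and for low genes this scale makes a change look smaller than it is. The groups had no overlap in 7 tested members, all of them higher in atrazine (12.1%, against 6.63% of all rows), and no member was lower without overlap, against 4.66% of all rows. With median-of-ratios scaling the median of the members was 0.076, beside 0.0036 for all rows, and 39 members had a positive sign. By library, the median centred log2(FPKM + 1) of the tested members was 0.024, 0.125 and 0.054 in atrazine and 0.035, -0.128 and -0.055 in control. Control replicate 1 thus lay above atrazine replicate 1, and the groups overlapped. In these counts the copies and fragments of a gene stand as separate rows, so they are not independent observations. In bulk testis a difference in the number of cells of a type cannot be told apart from a difference in RNA per cell.

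**Figure D2:**
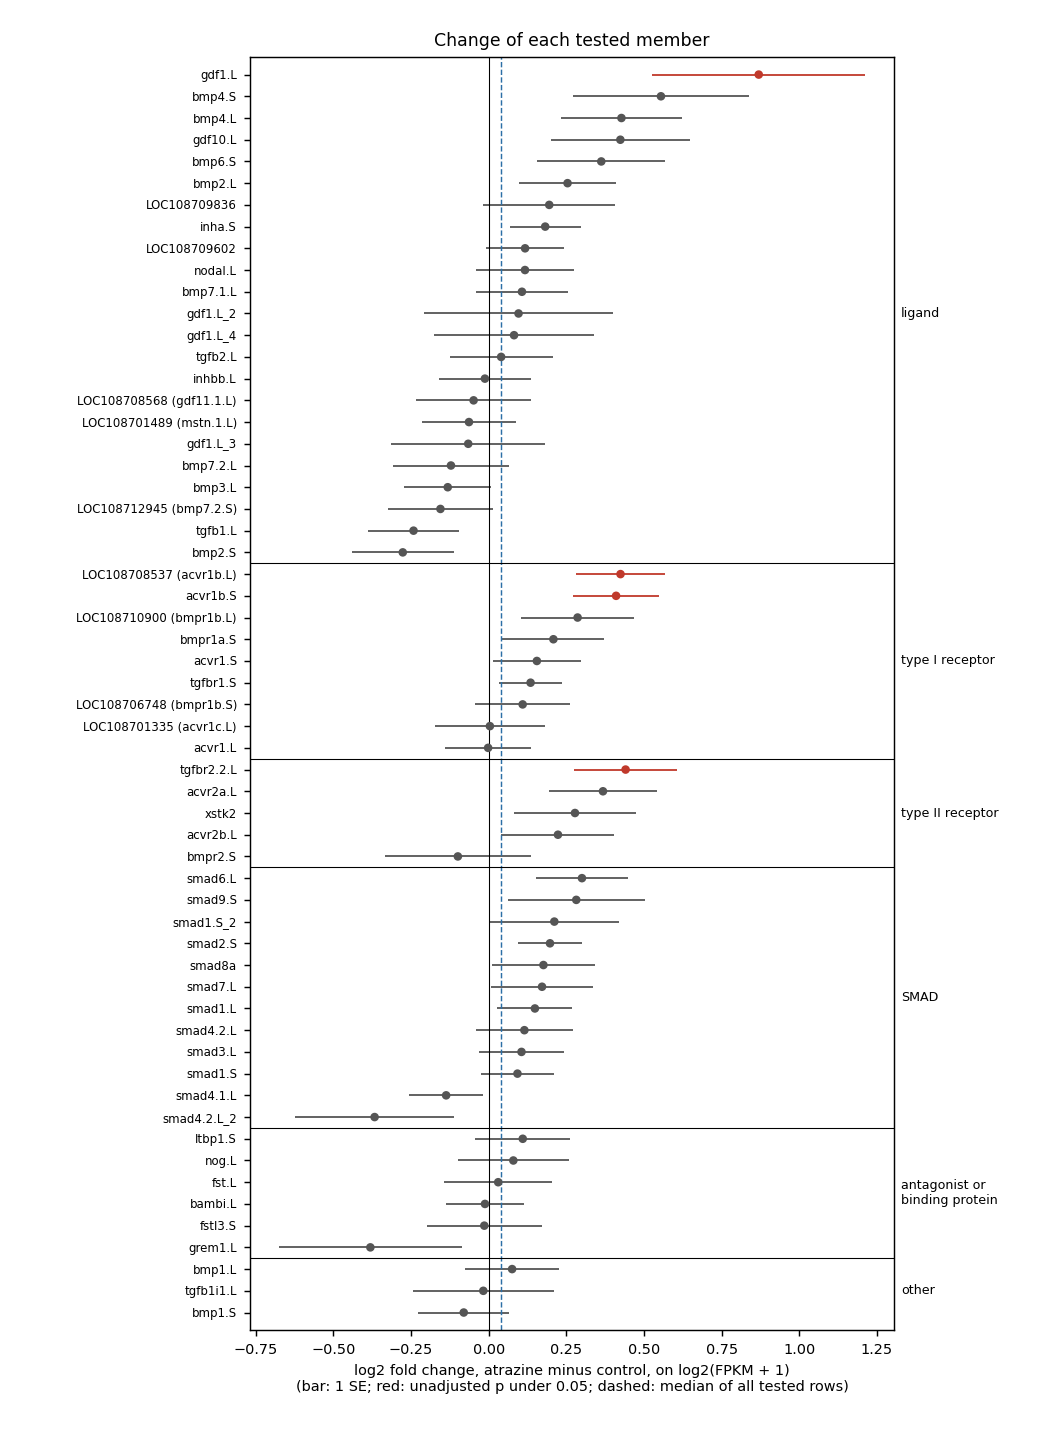
Log2 fold change of each of the 58 tested rows, atrazine minus control in log2(FPKM + 1), with a bar of 1 SE, grouped by role. Red marks the 4 rows at an unadjusted p under 0.05, all to the right of 0, and the dashed line is the median of all tested rows, 0.040.

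Ligands were the most varied role. Of the 23 tested, 14 had a positive and 9 a negative log2 fold change, with a median of 0.096 and a range of -0.28 to 0.87. Inhibin alpha, inha.S, which pairs with a beta subunit to form inhibin, lay on chromosome 9_10L at 50234386 to 50237642, against its suffix. It had 45.3, 46.4 and 54.3 FPKM in the atrazine libraries, against 44.2, 41.7 and 42.1 FPKM in the control libraries. All atrazine values lay above all control values, by as little as the step between 45.3 and 44.2 FPKM. The log2 fold change was 0.18 ± 0.11 (SE), with a limma adjusted p of 0.693, and 0.10 without atrazine replicate 3. The beta B subunit, inhbb.L, which forms activin B with itself and inhibin B with the alpha subunit, had 9.74, 11.2 and 11.2 FPKM in atrazine and 9.41, 13.0 and 10.2 FPKM in control. Its groups overlapped fully. The subunit row inhbc.1.L stayed under the filter, at no more than 0.551 FPKM in any library.

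The TGF-beta ligands were low. The isoform tgfb1.L, a broad regulator of growth and matrix, had 2.83, 3.63 and 3.19 FPKM in atrazine and 3.52, 4.44 and 3.98 FPKM in control. The atrazine values lay lower on the whole, with 1 value inside the control range, and the log2 fold change was -0.24 ± 0.15 (SE) at a limma adjusted p of 0.693. A second isoform, tgfb2.L, had 0.784, 1.48 and 1.13 FPKM in atrazine and 1.05, 0.907 and 1.22 FPKM in control, with full overlap.

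Among the BMP ligands, 6 of 9 tested rows had a positive log2 fold change. The germ cell and patterning ligand bmp4 had the largest differences of them, in both copies. On chromosome 8L at 71222237 to 71246058, bmp4.L had 10.14, 11.6 and 10.4 FPKM in atrazine and 10.8, 6.15 and 6.81 FPKM in control. On chromosome 8S at 13731520 to 13737130, bmp4.S had 16.9, 15.2 and 15.8 FPKM in atrazine and 18.4, 8.23 and 7.57 FPKM in control. In both copies control replicate 1 lay with the atrazine libraries and the other two controls lay well below them. The log2 fold changes were 0.43 ± 0.20 for bmp4.L and 0.55 ± 0.28 for bmp4.S (SE), with limma adjusted p of 0.693 for both. That of bmp4.S was 0.34 without control replicate 3.

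The related ligand bmp2, known for inducing bone, had 2.49, 2.94 and 3.096 FPKM for bmp2.L in atrazine and 2.73, 1.88 and 2.10 FPKM in control. Its other copy, bmp2.S, had 3.01, 2.72 and 2.03 FPKM in atrazine and 3.27, 2.92 and 3.80 FPKM in control. The copies leaned in opposite directions and each overlapped between the groups. The bmp7 ligands were close to the filter. They had 1.38, 1.43 and 1.42 FPKM in atrazine against 1.35, 1.46 and 0.942 FPKM in control for bmp7.1.L, and 0.799, 1.59 and 1.45 FPKM against 1.79, 1.18 and 1.42 FPKM for bmp7.2.L. The S copy of bmp7.2, deposited as LOC108712945, had 1.35, 1.39 and 0.883 FPKM in atrazine and 1.66, 1.08 and 1.64 FPKM in control. None of these bmp7 rows differed beyond its spread. The most abundant BMP-type ligand after bmp4.S was bmp3.L, a member that opposes other BMPs in mammals, with 11.6, 14.4 and 10.7 FPKM in atrazine and 13.1, 14.1 and 13.1 FPKM in control, and the groups overlapped.

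Vg1, the maternal ligand of early frog embryos, is encoded by gdf1, which had 4 rows. The row on chromosome 1L at 112281227 to 112281512, only 286 bases long, had 7.40, 5.96 and 8.97 FPKM in atrazine and 3.94, 1.61 and 6.42 FPKM in control. Only atrazine replicate 2 lay below any control library, and the log2 fold change of gdf1.L was 0.87 ± 0.34 (SE) at a limma adjusted p of 0.693. These values rest on 3 to 13 estimated reads per library, and the log2 fold change was 0.46 without control replicate 2 and 1.22 without control replicate 3. The other 3 gdf1.L rows, 432 to 557 bases long on unplaced sequences, had log2 fold changes of 0.10, -0.066 and 0.082. Among the muscle-limiting myostatin group, the gdf11-like rows LOC108708568 and LOC108709836 had log2 fold changes of -0.049 and 0.19 with overlapping groups.

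Type I receptors, the kinases that pass the signal to SMADs, had 8 of 9 rows with a positive log2 fold change, with a median of 0.16. That is 88.9%, against 57.3% of all tested rows, and copies of a gene count as separate rows in it. The activin type I receptor acvr1b, which carries activin and nodal signals, was covered by both of its copies. On chromosome 2S at 117611878 to 117642696, acvr1b.S had 8.83, 11.2 and 10.4 FPKM in atrazine and 7.43, 6.82 and 7.86 FPKM in control. The L copy, on chromosome 2L at 135748993 to 135782635, was deposited as LOC108708537, an activin receptor type-1B that assembly v10.1 names acvr1b.L. It had 13.0, 17.5 and 15.7 FPKM in atrazine and 12.1, 11.3 and 10.12 FPKM in control. In both copies every atrazine library lay above every control library. Set as ratios on the FPKM + 1 scale, they were 1.33-fold and 1.34-fold higher in atrazine, with log2 fold changes of 0.41 ± 0.14 for acvr1b.S and 0.42 ± 0.14 for LOC108708537 (SE). The unadjusted limma p was 0.0165 and 0.0176, and the adjusted p was 0.693 for both, so neither passed. They rested on 225 to 501 and on 415 to 952 estimated reads per library. Leaving out any 1 library gave log2 fold changes of 0.34 to 0.50 for acvr1b.S and 0.33 to 0.53 for LOC108708537. As copies of 1 gene they can share reads, so they are not independent observations.

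The TGF-beta type I receptor tgfbr1.S had 41.4, 42.2 and 39.7 FPKM in atrazine and 36.9, 36.9 and 38.2 FPKM in control. The groups did not overlap, but the difference was small, at 1.10-fold on the FPKM + 1 scale, with a log2 fold change of 0.13 ± 0.10 (SE) and a limma adjusted p of 0.708. The third activin-type receptor, LOC108701335 (acvr1c.L in assembly v10.1), had a log2 fold change of 0.0040. Of the 5 BMP type I receptor rows, LOC108710900 (bmpr1b.L in assembly v10.1) had the highest log2 fold change, 0.29 ± 0.18 (SE), and acvr1.L the lowest, -0.0017, and all of them overlapped between the groups.

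Type II receptors, which bind ligand and activate type I receptors, had 4 of 5 rows with a positive log2 fold change, with a median of 0.28. That is 80%, against 57.3% of all tested rows. The row tgfbr2.2.L, described as a TGF-beta type II receptor and named tgfbr2l.L in assembly v10.1, lies on chromosome 9_10L at 45755618 to 45767842. It had 2.22, 2.50 and 2.80 FPKM in atrazine and 2.07, 1.20 and 1.54 FPKM in control. Every atrazine value lay above every control value. The log2 fold change was 0.44 ± 0.17 (SE), with a limma unadjusted p of 0.0284 and an adjusted p of 0.693, on 43 to 83 estimated reads per library. Its S copy, deposited as LOC108702885, was a row that the symbols did not select, and it stayed under the filter. That copy had 0.320, 0.202 and 0.126 FPKM in atrazine and 0.347, 0.370 and 0.226 FPKM in control, with overlap. The activin type II receptor acvr2a.L, which also binds inhibin and some BMPs, had 6.68, 10.4 and 7.81 FPKM in atrazine and 5.72, 5.82 and 6.82 FPKM in control. Only atrazine replicate 1, at 6.68 FPKM, lay within the control range, and the log2 fold change was 0.37 ± 0.17 (SE) with a limma adjusted p of 0.693. It was 0.21 when atrazine replicate 2 was left out. A second activin type II receptor, acvr2b.L, had 0.731, 1.04 and 1.68 FPKM in atrazine and 0.886, 0.741 and 0.808 FPKM in control. Its S copy, deposited as xstk2, had 2.06, 3.202 and 2.57 FPKM in atrazine and 2.64, 1.41 and 1.94 FPKM in control. Both overlapped between the groups, with log2 fold changes of 0.22 and 0.28. The most abundant type II receptor was bmpr2.S, the BMP type II receptor, with 18.2, 11.02 and 21.5 FPKM in atrazine and 15.8, 21.3 and 16.1 FPKM in control. Its spread was wide in both groups, and its sign depended on the library left out, from -0.29 to 0.16.

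**Figure D3:**
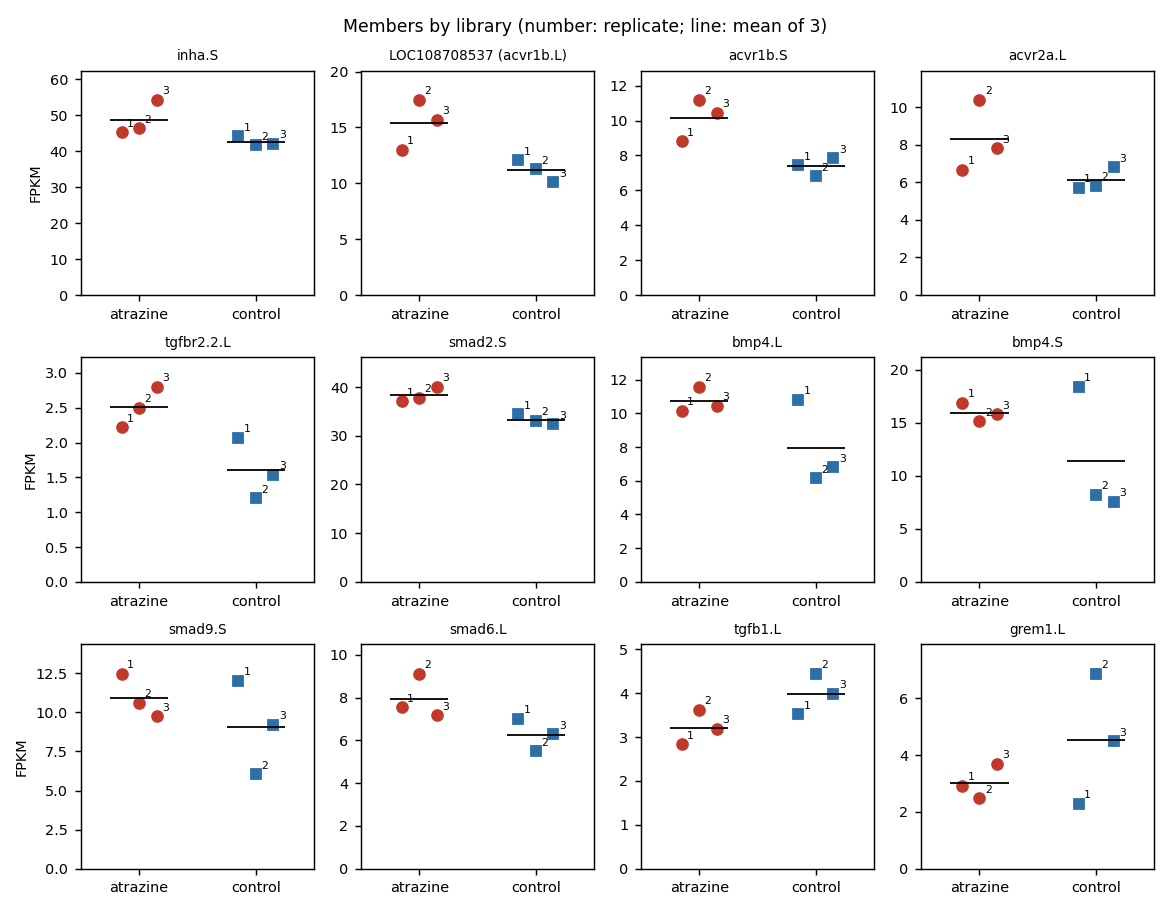
FPKM of 12 members in each library, on axes that start at 0, with atrazine (red circles) left of control (blue squares), numbered by replicate, and the mean of 3 libraries as a line. The acvr1b copies and tgfbr2.2.L show 3 atrazine points above 3 control points, while in both bmp4 copies control replicate 1 stands with the atrazine points.

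The SMADs, which carry the signal into the nucleus, had 10 of 12 rows with a positive log2 fold change, with a median of 0.16. That is 83.3%, against 57.3% of all tested rows, and copies and fragments of a gene count as separate rows in it. The activin and TGF-beta SMAD smad2.S, on chromosome 1S at 174261503 to 174286770, had 37.1, 37.8 and 40.1 FPKM in atrazine and 34.5, 33.1 and 32.4 FPKM in control. Every atrazine library lay above every control library. The log2 fold change was 0.20 ± 0.10 (SE), with a limma adjusted p of 0.693. Its L copy is deposited as mad2, a row that the symbols did not select, and that row had a log2 fold change of -0.0046. The second SMAD of this branch, smad3.L, had 8.64, 10.5 and 8.38 FPKM in atrazine and 9.04, 8.01 and 8.25 FPKM in control, with overlap. Its S copy, deposited as LOC108712801 and likewise not selected, had a log2 fold change of 0.28 with overlapping groups.

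The common SMAD4 had 3 rows among the members. The row smad4.1.L had 13.8, 14.6 and 13.0 FPKM in atrazine and 14.1, 16.0 and 15.6 FPKM in control. The row smad4.2.L had 9.42, 9.71 and 7.496 FPKM in atrazine and 9.43, 7.06 and 7.88 FPKM in control. A fragment of 526 bases on an unplaced sequence, smad4.2.L_2, had 22.4, 14.2 and 15.5 FPKM in atrazine and 29.4, 14.96 and 24.9 FPKM in control. The groups overlapped in all 3 rows, and the log2 fold changes were -0.14, 0.12 and -0.37. The S copies were deposited as LOC108707339 (smad4.S in assembly v10.1) and LOC108700426 (smad4.2.S), rows that the symbols did not select. Their means over the 6 libraries were 24.8 and 8.5 FPKM, and their log2 fold changes were -0.25 and 0.13, with overlapping groups.

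All 5 rows of the BMP-type SMADs had a positive log2 fold change, from 0.093 in smad1.S to 0.28 in smad9.S, and none was without overlap. These rows are copies of smad1 and smad9 only, with smad8a named smad9.L in assembly v10.1. The row smad1.S_2 is a fragment of 260 bases on an unplaced sequence. They are therefore not independent observations. Of the inhibitory SMADs, which are induced by the pathway and block it, smad6.L had 7.55, 9.12 and 7.18 FPKM in atrazine and 7.01, 5.49 and 6.29 FPKM in control. The groups did not overlap, and the log2 fold change was 0.30 ± 0.15 (SE) with a limma adjusted p of 0.693. The lncRNA LOC108711502 lies on the same strand within the smad6.L locus, so reads of the pair may not be separable. The inhibitor of TGF-beta and activin receptors, smad7.L, had a log2 fold change of 0.17 ± 0.16 (SE).

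The antagonists and binding proteins were split evenly, with 3 positive and 3 negative log2 fold changes and a median of 0.0094. The most abundant was bambi.L, a pseudoreceptor without kinase activity, with 9.49, 9.53 and 8.69 FPKM in atrazine and 10.01, 9.31 and 8.66 FPKM in control. Follistatin, which binds activin, had 0.803, 0.760 and 0.263 FPKM in the fst.L row in atrazine and 0.630, 0.468 and 0.571 FPKM in control. Neither differed beyond its spread, and the fst.L values rest on 2 to 12 estimated reads per library. The rows bmp1.L, bmp1.S and tgfb1i1.L were matched by their symbols but are no receptors or ligands. The bmp1 gene encodes a protease that cleaves chordin, and tgfb1i1 a focal adhesion protein. At 3.01, 5.11 and 4.12 FPKM in atrazine and 2.88, 5.42 and 4.22 FPKM in control, tgfb1i1.L overlapped fully.

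Control replicate 1 stood apart from the other controls in many members. It was the highest of the 3 control values in 33 of the 58 tested members (56.9%), in 15 of the 24 tested BMP branch members (62.5%) and in 43.5% of all tested rows. Its log2(FPKM + 1) exceeded the mean of control replicates 2 and 3 by a median of 0.20 in the BMP branch, 0.13 in all tested members and 0.051 in all rows. In the TGF-beta and activin branches control replicate 1 was highest in 10 of 18 tested members (55.6%), with a median of 0.074. Copies and fragments of a gene are separate rows in these counts, so they are not independent observations. The members below were singled out for the position of control replicate 1 after their values were seen. The BMP SMAD smad9.S had 12.5, 10.6 and 9.75 FPKM in atrazine and 12.0, 6.04 and 9.20 FPKM in control. Gremlin, the BMP antagonist encoded by grem1.L, ran the other way, with 2.92, 2.49 and 3.70 FPKM in atrazine and 2.29, 6.87 and 4.48 FPKM in control. In both genes control replicate 1 lay beside the atrazine libraries, on the side away from the other two controls.

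Without control replicate 1, limma gave 12 members at an unadjusted p under 0.05 (20.7%), 11 higher and only grem1.L lower, but the background was then 19.1% of all rows, with 10.8% higher. The smallest p was that of bmp4.S, with a log2 fold change of 0.93 ± 0.13 (SE), an unadjusted p of 9.2e-05 and an adjusted p of 0.108. The log2 fold change of bmp4.L was 0.65 ± 0.14 and that of grem1.L -0.71 ± 0.21 (SE), with adjusted p of 0.158 and 0.178. No member passed without this library either. In bmp4.S, bmp4.L and grem1.L control replicate 1 lay with the atrazine libraries, so leaving it out widens the difference between the groups. The smaller p-values of these rows follow from that and add no support for a difference.

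Markers of the cell types in a testis were compared beside these values. Matched by deposited symbol, 4 of 7 listed germ cell genes, 7 of 8 Sertoli genes and 3 of 5 Leydig genes had rows. A marker deposited under another name would not be counted. No row of these lists was at 0 in every library. The germ cell rows summed to 1028 to 1134 FPKM in atrazine and 952 to 1151 FPKM in control, and the Sertoli rows, of which inha.S is one, to 383 to 441 FPKM and 402 to 476 FPKM. The Leydig rows summed to 112 to 225 FPKM in atrazine, below the 242 to 258 FPKM in control, with all 3 rows lower in atrazine and none called. Their log2 fold changes were -0.72 in hsd3b1.L and -1.03 in star, both without overlap, and -0.38 in cyp17a1.L, which overlapped. The 4 germ cell rows did not go together. Control replicate 1 was the highest control in dnd1.L, with 134, 164 and 132 FPKM in atrazine and 151, 87.2 and 102 FPKM in control, and in ddx4.L, with 419, 363 and 325 FPKM in atrazine and 424, 263 and 333 FPKM in control. It was the lowest control in dazl.L, with 464, 445 and 456 FPKM in atrazine and 456, 472 and 484 FPKM in control, and in sycp3.L, with 117, 96.2 and 115 FPKM in atrazine and 120, 129 and 127 FPKM in control. The part of germ cell, Leydig cell or other cell content in the differences of the members was not tested. The smooth muscle list was lowest in control replicate 1, with sums of 126 to 182 FPKM in atrazine and 112 to 198 FPKM in control. Its 4 rows did not go together either, with 1 higher and 3 lower in atrazine and none called. The higher row, cnn1.L, had 13.2, 13.8 and 14.1 FPKM in atrazine and 8.79, 8.42 and 8.996 FPKM in control. The groups did not overlap in cnn1.L, and the log2 fold change was 0.60. The row acta2.S was lowest in atrazine replicate 1, at 43.5 FPKM, against 45.8 FPKM in control replicate 1. The red blood cell list summed to 142 to 215 FPKM in atrazine and 244 to 712 FPKM in control.

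**Figure D4:**
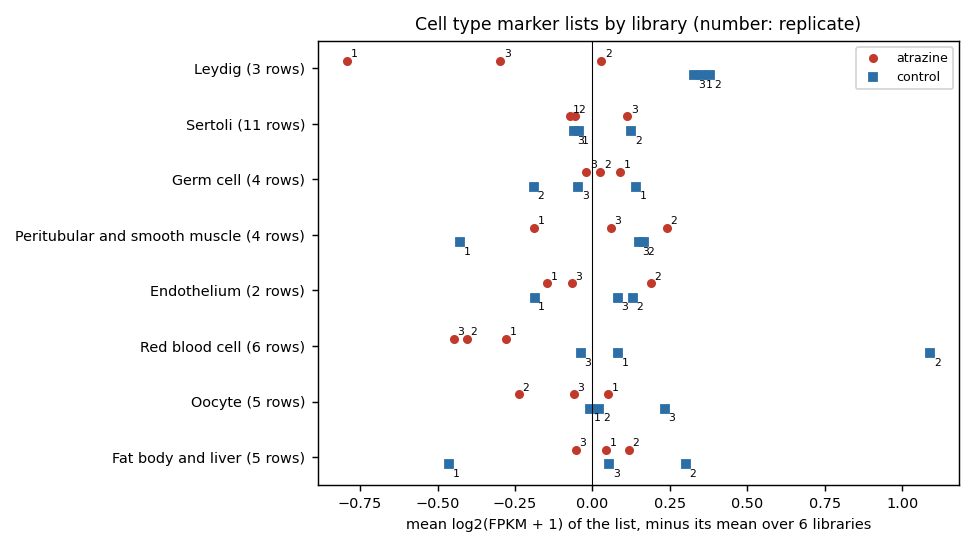
Mean log2(FPKM + 1) of each cell type marker list with more than 1 tested row in each library, minus the list's mean over 6 libraries, with atrazine (red circles) above control (blue squares) and replicates numbered. The Leydig points of atrazine all lie left of those of control, and control replicate 1 lies at the far right of the germ cell list and the far left of the smooth muscle list.

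The L and S copies of the same gene were compared as a ratio within each library. With deposited symbols 4 member pairs could be tested, and with the symbols of assembly v10.1 14 of 20 pairs. Limma called 0 of 615 pairs and 0 of 1931 pairs, with 6.02% and 6.68% at an unadjusted p under 0.05. Of the members only bmp2 reached that mark. The L copy made up 45.3%, 52.0% and 60.4% of bmp2 in atrazine, against 45.5%, 39.2% and 35.6% in control. Atrazine replicate 1 lay within the control range. The log2 ratio of L to S differed by 0.53 ± 0.19 (SE), with a limma adjusted p of 0.630 over 615 pairs and 0.652 over 1931 pairs. The bmp4 pair shifted by -0.13 ± 0.17 and the acvr1b pair by 0.014 ± 0.13 (SE), with limma adjusted p of 0.856 and 0.982.

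In level, the copy named S was the higher one in 9 of the 14 member pairs. In the deposited loci bmp1.L lies on chromosome 3S and bmp1.S on 3L, and with L and S taken from the locus this was 8 of 14, since the L share of bmp1 is 44.8% by symbol and 55.2% by locus. By symbol, the median share of the L copy was 44.6% in these pairs and 52.1% in all pairs, of which 55.5% had the higher L copy. It ranged from 29.9% in acvr2b to 66.2% in bmpr1b. The activin type I receptor acvr1b, with 60.2% from the L copy, and smad2, with 38.3%, leaned to opposite sides. The sources used here do not say how reads that match both copies were treated.

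**Figure D5:**
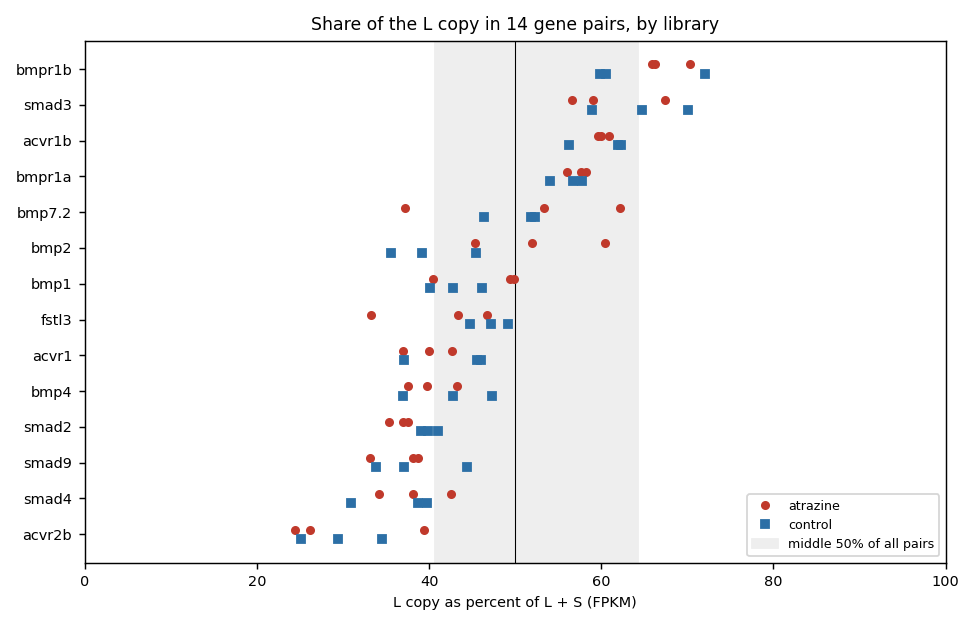
Share of the L copy in the summed FPKM of L and S for the 14 member pairs named with v10.1 symbols, in each library, with atrazine (red circles) above control (blue squares). The grey band runs from 40.7% to 64.3%, the quartiles of all 1931 pairs, the line marks equal copies, and 9 of the 14 pairs lie left of it over the 6 libraries, or 8 with bmp1 turned to match its loci.

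Other genes of the pathway were followed with lists of extracellular modulators, intracellular modulators and target genes, 88 rows in all. Of the 78 tested, 47 had a positive and 31 a negative log2 fold change (60.3% positive, against 57.3% of all rows), with a median of 0.069. Limma called 0 of them. At an unadjusted p under 0.05 there were 5 higher and 4 lower of these 78 rows. Of all 23824 tested rows 792 were higher (3.32%) and 618 lower (2.59%), which are smaller shares in both directions. The lists were drawn up with earlier results of these data known, so these counts cannot show an excess in the pathway. Copies such as msx1.L and msx1.S also count as separate rows. The smallest p was that of fkbp1a, a binding protein that holds type I receptors inactive. It had 69.4, 66.4 and 66.3 FPKM in atrazine and 89.9, 104 and 94.6 FPKM in control. The groups were well apart, with a log2 fold change of -0.50 ± 0.11 (SE), a limma unadjusted p of 0.00123 and an adjusted p of 0.693. Its L copy fkbp1a.L had a log2 fold change of -0.0097 with overlapping groups.

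Among the 31 tested intracellular modulators 19 had a positive and 12 a negative log2 fold change. The ubiquitin ligase gene smurf2.S, which marks receptors and SMADs for breakdown, had 6.79, 8.54 and 8.73 FPKM in atrazine and 6.36, 4.99 and 5.89 FPKM in control. The SMAD anchor gene zfyve9.L, which presents SMAD2 and SMAD3 to the receptor, had 8.83, 10.7 and 10.5 FPKM in atrazine and 8.57, 5.85 and 7.30 FPKM in control. Neither overlapped between the groups, and their log2 fold changes were 0.42 ± 0.15 and 0.43 ± 0.16 (SE). The corepressor gene tgif1.S had 15.6, 16.2 and 12.3 FPKM in atrazine and 13.7, 8.18 and 10.07 FPKM in control, with 1 control value inside the atrazine range, and a log2 fold change of 0.45 ± 0.19 (SE), or 0.29 without control replicate 2. A row of the kinase gene hipk2.L on an unplaced sequence, hipk2.L_2, was lower at 0.810, 0.384 and 0.797 FPKM in atrazine against 1.05, 1.27 and 1.76 FPKM in control. These values rest on 2 to 8 estimated reads per library. The other hipk2.L row had a log2 fold change of 0.35, with overlapping groups.

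Of the 24 tested target genes 15 had a positive and 9 a negative log2 fold change. The id genes, BMP targets whose products block basic helix-loop-helix factors, were singled out among these after their values were seen. Their 5 rows had log2 fold changes from -0.11 in id3.S to -0.41 in id4.L, and the unadjusted limma p of the rows other than id4.L ran from 0.158 to 0.418. The row id4.L had 6.27, 4.44 and 5.30 FPKM in atrazine and 7.16, 8.35 and 6.60 FPKM in control, without overlap. The early response gene junb.L had 9.13, 10.4 and 10.2 FPKM in atrazine and 8.27, 7.19985 and 8.02 FPKM in control, likewise without overlap. A second junb row, on an unplaced sequence, had a log2 fold change of 0.28, also without overlap. The BMP target msx1.S had 0.605, 0.573 and 0.916 FPKM in atrazine and 0.997, 1.74 and 1.49 FPKM in control, while msx1.L, its other copy, had a log2 fold change of 0.41, without overlap and under a mean of 1 FPKM. Per library msx1.S rests on 10 to 43 and msx1.L on 3 to 21 estimated reads. For these 3 targets, id4.L, junb.L and msx1.S, the log2 fold changes were -0.41, 0.31 and -0.50, and the limma adjusted p of each was 0.693.

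Circular RNAs, closed rings read through their back-splice junctions, gave a readout that the rule for choosing the genes had not used. Of 68575 circRNAs, 74 had a member as host gene, from 25 symbols, and 52 of them were exonic. Most were rare, with 56 seen in 1 library only, and 1 in all 6 libraries. No member ring had a count of 1 in any library. Seen therefore means at least 2 reads, and a 0 may stand for 1 read. That limits what the values of 0 say about absence. The ring seen in all 6 libraries, from tgfbr1.S on chromosome 6S at 55371739 to 55390917, had 5, 5 and 6 junction reads in atrazine and 9, 3 and 2 in control. The ring of the protease gene bmp1.S on chromosome 3L at 122476681 to 122479858 had 4, 8 and 0 reads in atrazine and 3, 3 and 0 in control. The ring of tgfb1.L on chromosome 8L at 57211387 to 57216314 had 0, 0 and 3 reads in atrazine and 5, 5 and 4 in control. These 3 were the most read of the 74, and no member ring exceeded 9 reads in a library.

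Of the 11 member rings that could be tested, the edgeR quasi-likelihood test called 0, as it called 0 of 6592 over the table, where 6.19% had an unadjusted p under 0.05, and DESeq2 called 0 as well. The only member at that mark was a ring of acvr2a.L on chromosome 9_10L at 57004657 to 57005264. It had 8, 2 and 2 reads in atrazine and 0, 0 and 0 in control. Since no member ring had a count between 0 and 2, these values of 0 may not mean that no read was present. The adjusted p was 0.640 with edgeR. A ring with the same end that starts 3 bases away had 0, 2 and 0 reads in atrazine and 0, 2 and 5 in control. Summed over both rings the reads were 8, 4 and 2 in atrazine and 0, 2 and 5 in control, and the groups overlapped.

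Members supplied 9.12, 12.1 and 8.36 of every 10000 junction reads in atrazine, against 10.7, 8.11 and 5.88 in control. The means were 9.85 ± 1.97 in atrazine and 8.22 ± 2.40 in control (SD, n = 3 each; exact permutation test of the means, two-sided, p = 0.4, smallest possible 0.1 from 20 assignments). The exact 95% Poisson intervals were 9.29 to 15.5 in the highest and 5.68 to 11.9 in the lowest atrazine library, replicates 2 and 3. They were 8.38 to 13.4 in the highest and 4.12 to 8.14 in the lowest control library, replicates 1 and 3. These intervals cover counting error only.

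Long non-coding RNAs linked to members were few, 4 of 3559 transcripts, and 2 of them passed the filter. Limma called 0 of 1432 lncRNAs, with 6.77% at an unadjusted p under 0.05. The transcript antisense to bmpr2.S, LOC108703059, had 1.67, 1.59 and 0 FPKM in atrazine and 1.44, 1.16 and 3.72 FPKM in control. The transcript within smad6.L, LOC108711502, had 0.846, 0.852 and 0.804 FPKM in atrazine and 0.537, 0.663 and 0.810 FPKM in control. Both overlapped between the groups, with log2 fold changes of -0.62 ± 0.48 and 0.14 ± 0.17 (SE) and limma adjusted p of 0.871 and 0.896. The 2 transcripts in the introns of bmp4.L, on its opposite strand, were at 0.357 FPKM or less in every library.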

How the data were processed

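RNA came from frozen testes and went into strand-marking libraries after rRNA removal, per the labels' protocols. Per the submitters' processing notes CASAVA 1.8, Bowtie2 and HISAT2 were used, with no role given. Not given in the sources used here were the quantifier, circRNA caller, annotation release, genome build and use of strand in counting. Per the file headers, the authors deposited FPKM per mRNA gene and per lncRNA transcript. Beside it the authors deposited a signal column headed as counts, which is not whole. At least 99.8% of its low values were whole multiples of 1 step per library, within 0.02, and depth was estimated from that step. The authors deposited raw junction counts of circRNAs and log2 normalized values, and the counts were used here. No column of another sample was present.

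mRNAs, lncRNAs and copy ratios were tested with limma 3.58.1 (R 4.3.3, eBayes with a trend) on log2(FPKM + 1), for rows that reached 0.5 FPKM in 3 or more libraries, and circRNAs with edgeR 4.0.16 for at least 2 reads in at least 3 libraries, with group as the only term and an adjusted p threshold of 0.05. DESeq2 1.42.0 was an alternative for circRNAs. The scripts were tested on simulated data. The members and lists were chosen with earlier results of these data known. Values per library are given for members at an unadjusted p under 0.05 or without overlap with a mean of at least 1 FPKM, the most abundant row of each role, a list of gonadal members, and pathway rows at an unadjusted p under 0.05 with a mean of at least 1 FPKM. For circRNAs, pairs and lncRNAs the same p limit applied, with the 3 most read rings and the 2 highest lncRNAs. Any other member named was picked after its values were seen. Symbols of assembly v10.1 came from RefSeq and served for names, for pairs and for 1 alternative. Coordinates are those of the deposited tables, written from 1, and sequences were not used here.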

Additional observations from a re-analysis of the deposited data

How the results depend on the processing

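The count of called members stayed at 0 under all alternatives run (filters, pseudocount, scaling, variance prior, replicate block, each library left out, and v10.1 symbols), as did called pathway rows, member circRNAs and member lncRNAs under theirs. Of all mRNA rows, 0 to 5 were called when 1 library was left out, 1 without atrazine replicate 3 and 5 without control replicate 1. The members at an unadjusted p under 0.05 numbered 0 to 12 over the same fits, and all rows at that mark 657 to 4498. Called copy pairs numbered 0 to 1, with 1 without control replicate 1. Taking L and S from the deposited loci, also chosen after seeing the data, gave 8 member pairs with the higher S copy in place of 9. Called circRNAs numbered 0 to 2, with 2 when control replicate 1 or 3 was left out and 1 when control replicate 2 was, and 3 when no filter on low counts was used, and the cause was not tested. With v10.1 symbols, an alternative chosen after seeing the data under which no copy pair was called, the members at an unadjusted p under 0.05 were 5 of 67, the added one being LOC108712673 (nodal1.S in v10.1), with 2.12, 3.22 and 2.99 FPKM in atrazine, 1.85, 2.12 and 1.08 FPKM in control and a log2 fold change of 0.50 ± 0.20 (SE). It was named after its values were seen. The median log2 fold change of members stayed between 0.071 and 0.15 over all left-out libraries and was 0.079 without a filter and 0.13 with a pseudocount of 0.1.

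Of the values of single genes and pairs under alternatives, 437 kept their sign and side of the threshold and 16 changed sign, each with 1 library left out and none of them called, and the cause was not tested. Their ranges over left-out libraries were -0.059 to 0.036 for bambi.L, -0.21 to 0.15 for tgfb1i1.L, -0.29 to 0.16 for bmpr2.S, -0.22 to 0.041 for bmp7.2.L, -0.061 to 0.20 for fst.L, -0.10 to 0.11 for inhbb.L, -0.076 to 0.16 for tgfb2.L and -0.28 to 0.0087 for the bmp4 copy ratio.

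The labels number the replicates in both groups and do not say if the numbers pair the libraries. Deviations of same-numbered libraries correlated at 0.025, -0.35 and -0.039. Those of differently numbered libraries ran from -0.36 (atrazine replicate 3, control replicate 1) to 0.41 (atrazine replicate 3, control replicate 2). Deviations from a mean of 3 libraries are tied to each other, so these values cannot decide whether libraries were paired. When replicate number entered as a block, the members at an unadjusted p under 0.05 were 4 as before, all rows 1031 in place of 1410, and 1 circRNA was called. The block changed no other call. Depth limits low rows: fst.L, the short gdf1.L row and hipk2.L_2 rest on at most 13 estimated reads per library, and no member ring exceeded 9 reads.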
